A study of Homo sapiens with 6 samples.

Results

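The high mobility group (HMG) genes HMGB1, HMGB2, HMGB3, HMGN1, HMGN2, HMGN3 and HMGA1 were followed in human cells across 5 single-cell long-read libraries, 7 genes of the 12472 human genes that could be named. Every transcript of these genes was taken, matched by Ensembl identifier without its version to GENCODE release 44. The family was selected on measured values, because an isoform of HMGB1 had a high ratio between the 10X libraries in earlier results, so the 10X ratios of HMGB1 are given as a description only. Of 64 annotated HMG transcripts, 52 were stored in at least 1 matrix and 41 had a count in human cells of at least 1 library.

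HMG proteins are abundant non-histone proteins of chromatin. HMGB proteins bend DNA with their HMG boxes and end in an acidic tail, and HMGB1 also acts as an alarm signal when it leaves dying or stressed cells. HMGN proteins bind the nucleosome and compete with linker histone H1, and HMGA proteins bind AT-rich DNA through AT-hooks.

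The study asked how PCR cycles affect the counting of RNA molecules by unique molecular identifiers (UMIs), and mixed cells of a human line labelled JJN3 with cells of a mouse line labelled 5TGMG1 (5TGM1 in the study's text), both given as myeloma lines, before nanopore sequencing. The study's library methods name JJN3 for both platforms. Its list of cultured lines and its reporting summary, however, name Jurkat, a T cell line, and not JJN3. A figure legend also names Jurkat as the human line of the 10X experiment. Drop-seq libraries had 25, 30 and 35 PCR cycles and 10X Chromium libraries had 30 and 35, as labelled. For 10X the study's main text gives lower combined cycle numbers than these labels. The study describes UMIs of single bases (monomer) in 10X and UMIs built of blocks of equal bases (homotrimer) in Drop-seq. Each of the 5 was a group of 1 library, no group had a replicate, and no difference between libraries was tested. All intervals below are 95% intervals that cover the counting error of stored counts only, and PCR copies not recognised as such are not independent molecules.

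In each library the deepest barcodes were taken as cells, up to the number in its label, and a human cell had at least 90% of its counts on human transcripts. This left 251, 166 and 165 human cells in the Drop-seq libraries at 25, 30 and 35 cycles and 1006 and 911 in the 10X libraries at 30 and 35 cycles, with 67144 to 199308 human counts per library. Libraries of a platform shared many of these barcodes. In Drop-seq 135 human cells were shared at 25 and 30 cycles, 133 at 25 and 35, and 145 at 30 and 35. In 10X 722 were shared. Median counts per human cell ran from 243 to 352 in Drop-seq and were 118 and 171 in 10X. No value below 3 was stored in Drop-seq at 30 and 35 cycles and none below 2 in 10X, whereas Drop-seq at 25 cycles went down to 1, so values under these limits are missing and not 0. Plasma cell markers had counts for 10 of 10 genes in both 10X libraries, at 6761 and 4395 CPM (counts scaled to a total of 1000000 human counts), and for 1 of 10, MZB1, in each Drop-seq library, at 74.5 to 130.2 CPM. T cell markers had counts for 6 to 10 of 15 genes in Drop-seq, at 3063 to 3560 CPM and led by CD3G, CD1E and TRBC1, and for 1 and 0 of 15 in the 10X libraries, at 12.3 and 0 CPM. Platform, UMI design and the identity of the human cells therefore cannot be told apart in any value set across platforms.

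The last coding exons of the HMGB genes are shown because the HMGB1 isoforms below differ in whether they keep this exon as coding sequence. They encode the acidic tail, and the run of acidic codons (each starting with GA) that ends the coding sequence is in capitals. The stop codon is left out. Sequences are the transcript strand of hg38 from GENCODE release 44, at chr13:30461360-30461533 (minus strand), chr4:173332083-173332238 (minus strand) and chrX:150987777-150987911 (plus strand).
HMGB1-203: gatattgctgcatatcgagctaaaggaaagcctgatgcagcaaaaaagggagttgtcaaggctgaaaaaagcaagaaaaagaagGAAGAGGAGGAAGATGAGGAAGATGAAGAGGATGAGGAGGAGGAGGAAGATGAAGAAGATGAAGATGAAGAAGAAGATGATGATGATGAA
HMGB2-201: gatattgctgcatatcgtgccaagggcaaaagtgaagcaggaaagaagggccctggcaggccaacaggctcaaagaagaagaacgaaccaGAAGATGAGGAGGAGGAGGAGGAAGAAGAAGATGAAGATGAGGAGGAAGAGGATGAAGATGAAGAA
HMGB3-201: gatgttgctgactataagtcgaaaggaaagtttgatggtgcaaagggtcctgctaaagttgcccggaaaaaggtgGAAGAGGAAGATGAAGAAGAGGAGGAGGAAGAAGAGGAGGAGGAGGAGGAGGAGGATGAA
The closing run held 30 acidic codons in HMGB1, 22 in HMGB2 and 20 in HMGB3. The base A made up 45.4% of the HMGB1 exon, 41.7% of the HMGB2 exon and 37.0% of the HMGB3 exon.

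HMGB1 (ENSG00000189403, chr13:30456704-30617597, minus strand) was counted in every library, with 431, 169 and 272 UMIs in human cells of the Drop-seq libraries at 25, 30 and 35 cycles and 108 and 437 in the 10X libraries at 30 and 35 cycles. These corresponded to 3740 (3395 to 4110), 2517 (2152 to 2926), 2909 (2574 to 3276), 667 (547 to 805) and 2193 (1992 to 2408) CPM. The 10X library at 30 cycles was the lowest of the 5 and its interval met none of the others. The intervals of Drop-seq at 30 and 35 cycles overlapped, and so did those of Drop-seq at 30 cycles and 10X at 35 cycles. In the Drop-seq library at 25 cycles, 1 cell with 162 human counts held 131 of the 431 HMGB1 counts, and the level was 2607 CPM without it.

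HMGB1 counts were found in 39 of 251, 14 of 166 and 17 of 165 human cells in Drop-seq, with 22 of 1006 and 60 of 911 in 10X, that is in 15.5%, 8.43%, 10.3%, 2.19% and 6.59%. Of these HMGB1 cells, 21, 2, 3, 2 and 3 had a barcode 1 base from that of a deeper human cell. Among all human cells, 67, 14, 16, 87 and 71 did. Some of the 39 cells at 25 cycles may therefore not be separate cells. In mouse cells of the same libraries, whose median depth was 282.5, 278, 417, 117 and 171 counts against 271, 243, 352, 118 and 171 in human cells, the shares were 1.86%, 0%, 0.324%, 0.124% and 0.341%. The 0% was 0 of 291 cells, in a library without stored values below 3. In each library the human share lay above the mouse share.

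HMGB2 (ENSG00000164104, chr4:173331376-173334432), the close relative of HMGB1 that is found mainly in dividing cells, had 90, 70 and 76 counts in Drop-seq, with 40 and 90 in 10X. Its levels were 781 (628 to 960), 1043 (813 to 1317), 813 (640 to 1017), 247 (176 to 336) and 452 (363 to 555) CPM. The Drop-seq intervals overlapped each other and lay above both 10X intervals. However, 1 cell held 33 of the 76 counts in Drop-seq at 35 cycles, and without it the level was 482 CPM, within the interval of 10X at 35 cycles. HMGB3 (ENSG00000029993, chrX:150980509-150990771) had no count in human cells of any Drop-seq library and 2 and 6 counts in 10X. A count of 0 allows up to 26.0 CPM in Drop-seq at 25 cycles, and no such limit holds in the other libraries, where the lowest values are not stored.

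HMGN1 (ENSG00000205581, chr21:39342315-39349647) had 26, 9 and 18 counts in Drop-seq, with 92 and 87 in 10X. It was higher in 10X than in Drop-seq, at 568 (458 to 697) and 436.5 (350 to 538) CPM against 226 (147 to 331), 134 (61.3 to 254.5) and 193 (114 to 304) CPM, the opposite order to that of HMGB1, HMGB2, HMGN2 and HMGA1. This order turned at 35 cycles when values below 3 were left out of both platforms, with 18 counts in Drop-seq and 9 in 10X, a log2 ratio of -0.82 (-2.19 to 0.37), whereas at 30 cycles 9 and 12 counts gave 0.88 (-0.47 to 2.32). The Drop-seq counts of HMGN1 came from 5, 1 and 2 cells, and without the cell with the most counts the levels were 140, 0 and 96.8 CPM. HMGN2 (ENSG00000198830, chr1:26472440-26476642) had 160, 98 and 217 counts in Drop-seq, with 74 and 141 in 10X, at 1388 (1182 to 1621), 1460 (1185 to 1779), 2321 (2022 to 2651), 457 (359 to 574) and 707 (595.5 to 834) CPM. HMGN3 (ENSG00000118418, chr6:79201245-79234689) had 6 counts in 1 cell of the 10X library at 30 cycles and none in human cells of the other 4 libraries.

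HMGA1 (ENSG00000137309, chr6:34236873-34246231), the AT-hook protein of growing and transformed cells, had 77, 65 and 75 counts in Drop-seq, at 668 (527 to 835), 968 (747 to 1234) and 802 (631 to 1005) CPM. In 10X it had 0 stored counts at 30 cycles and 14 counts in 2 cells at 35 cycles, at 70.2 (38.4 to 118) CPM. The interval of 10X at 35 cycles lay below the Drop-seq intervals, but it lacks values below 2, which 10X did not store. For the same reason no limit holds for the 0 at 30 cycles. In all libraries the HMGA1 counts came from few cells, 2 to 6 where the gene was seen. Without the cell with the most counts the level was 628 CPM in Drop-seq at 30 cycles and 30.1 CPM in 10X at 35 cycles.

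**Figure D1:**
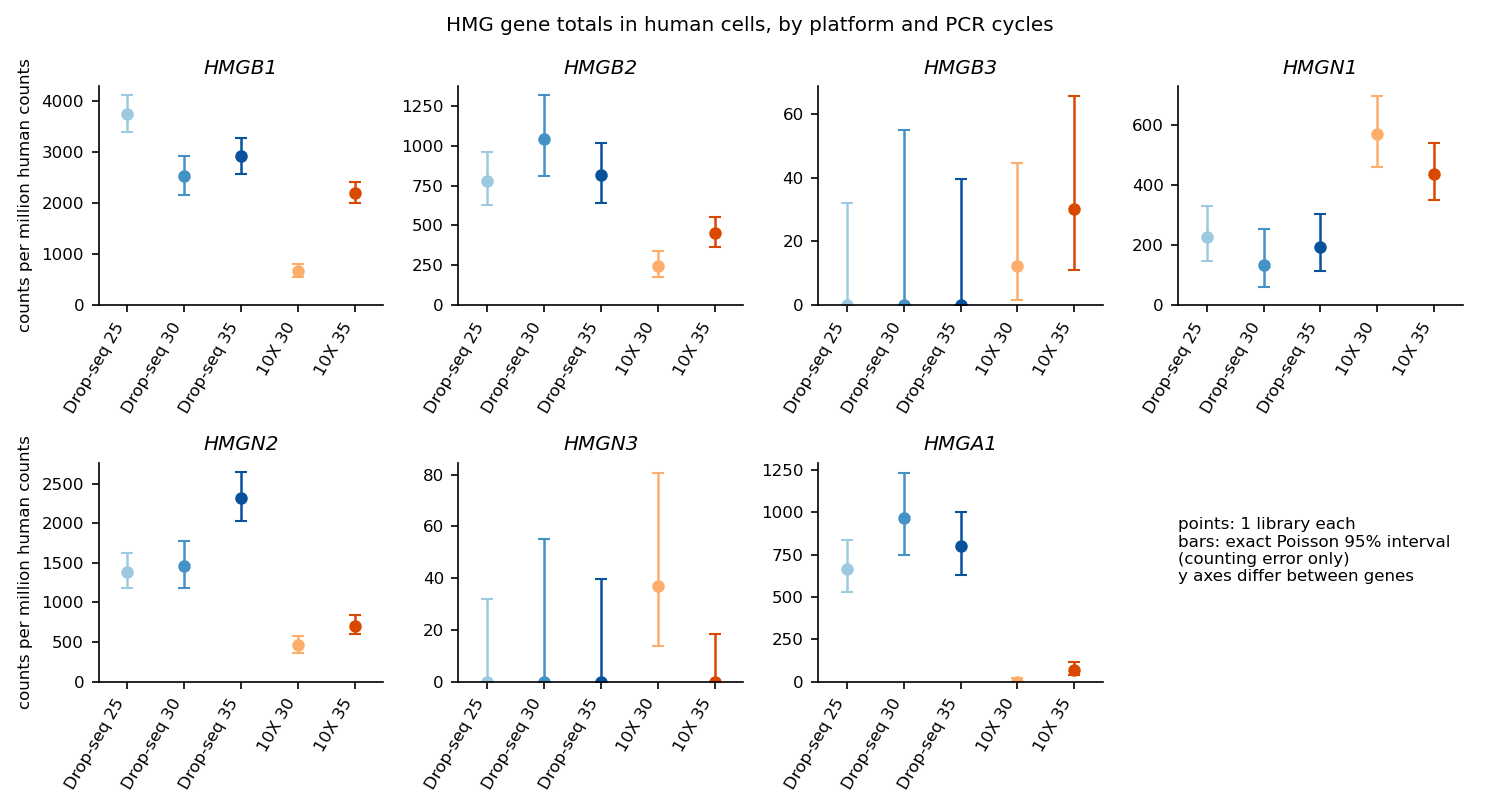
Level of each HMG gene in human cells (CPM, linear axes that differ between genes) for the 5 libraries on the horizontal axis; each point is 1 library and bars are exact Poisson 95% intervals. HMGB1 in 10X goes from 667 at 30 cycles to 2193 at 35 cycles, HMGN1 is at 568 and 436.5 in 10X against 134 to 226 in Drop-seq (the order at 35 cycles turns without values below 3), and HMGA1 is at 0 and 70.2 in 10X against 668 to 968 in Drop-seq. A bar at 0 sets no limit in libraries where the lowest values are not stored.

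A read may have been counted on several isoforms, which the stored values do not show directly. Of the stored HMG values in Drop-seq 83.2%, 71.6% and 64.7%, and of those in 10X 73.4% and 77.4%, were the same as that of another isoform of the gene in the same cell, against 75.9%, 69.4%, 67.2%, 54.3% and 59.0% over all human genes. Values at the smallest stored value can also match without a shared read. In 10X, 48 of 52 HMGB1 values at 30 cycles and 135 of 189 at 35 cycles were at that value. Gene totals are sums over isoforms and cannot be read as numbers of molecules. With only the highest isoform per cell, HMGB1 had 157, 78 and 103 counts in Drop-seq, with 45 and 140 in 10X, HMGB2 had 33, 30, 34, 14 and 27, HMGN1 6, 3, 6, 32 and 26, HMGN2 99, 56, 108, 66 and 133, and HMGA1 19, 19, 22, 0 and 4.

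The HMGB1 isoforms shared the coding exons up to the last and differed in their first exon and their 3′ end. HMGB1-205 (ENST00000399494), HMGB1-202 (ENST00000339872), HMGB1-206 (ENST00000405805) and HMGB1-203 (ENST00000341423) encode 215 codons and run 453, 1510, 2613 and 4656 bases past the last of them. HMGB1-206 starts 154 kb upstream of the coding sequence, whereas the other 3 start within 2.26 kb of it. HMGB1-201 (ENST00000326004) and HMGB1-204 (ENST00000399489) have 158 codons, because the exon that follows the shared coding exons begins 155 bases before the last coding exon of the other isoforms and ends the reading frame there. HMGB1-201 stops after base 38 of the exon printed above, and the next 20 bases hold 9 A, 6 of them in a row. HMGB1-204 keeps this exon as part of its 3′ end, behind that exon, which is 50 bases long. HMGB1-207 and HMGB1-208 have no defined coding sequence.

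HMGB1-201 had 117, 43 and 71 counts in Drop-seq, with 2 and 6 in 10X. It took 27.1% (23.0% to 31.6%), 25.4% (19.1% to 32.7%) and 26.1% (21.0% to 31.7%) of the gene in Drop-seq against 1.85% (0.225% to 6.53%) and 1.37% (0.505% to 2.96%) in 10X. The 3 Drop-seq shares lay together, far above both 10X shares. They are not independent of each other, because the Drop-seq libraries share many barcodes. At 25 cycles 1 cell held 131 of the 431 HMGB1 counts, so the isoform shares and intervals of that library rest in part on it. Every human cell with HMGB1-201 also had HMGB1-203, with which it shares a first exon, in 26 of 26, 8 of 8, 14 of 14, 1 of 1 and 3 of 3 cells, and with the same value in 20, 5, 9, 1 and 2 of them.

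HMGB1-203, the longest isoform at 5456 bases, had 156, 77 and 100 counts in Drop-seq, with 39 and 122 in 10X. Its shares were 36.2%, 45.6%, 36.8%, 36.1% and 27.9%, and it was in 39 of 39, 14 of 14 and 17 of 17 HMGB1 cells in Drop-seq, with 19 of 22 and 53 of 60 in 10X. HMGB1-202 had 48, 14, 30, 21 and 104 counts and shares of 11.1%, 8.28%, 11.0%, 19.4% and 23.8%. HMGB1-206 had 47, 17, 29, 29 and 95 counts and shares of 10.9%, 10.1%, 10.7%, 26.9% and 21.7%. Both had higher shares in each 10X library than in any Drop-seq library.

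HMGB1-205 had 38, 14 and 29 counts in Drop-seq, with 11 and 76 in 10X, and took 8.82%, 8.28%, 10.7%, 10.2% and 17.4% of the gene. HMGB1-204 had 18, 0, 4, 6 and 32 counts, and HMGB1-207 had 7, 4 and 9 counts in Drop-seq and none in 10X. HMGB1-208 had 2 counts, both in 10X at 35 cycles. Both isoforms with 158 codons together took 31.3% (27.0% to 35.9%), 25.4% (19.1% to 32.7%) and 27.6% (22.3% to 33.3%) of the gene in Drop-seq, with 7.41% (3.25% to 14.1%) and 8.70% (6.23% to 11.7%) in 10X.

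**Figure D2:**
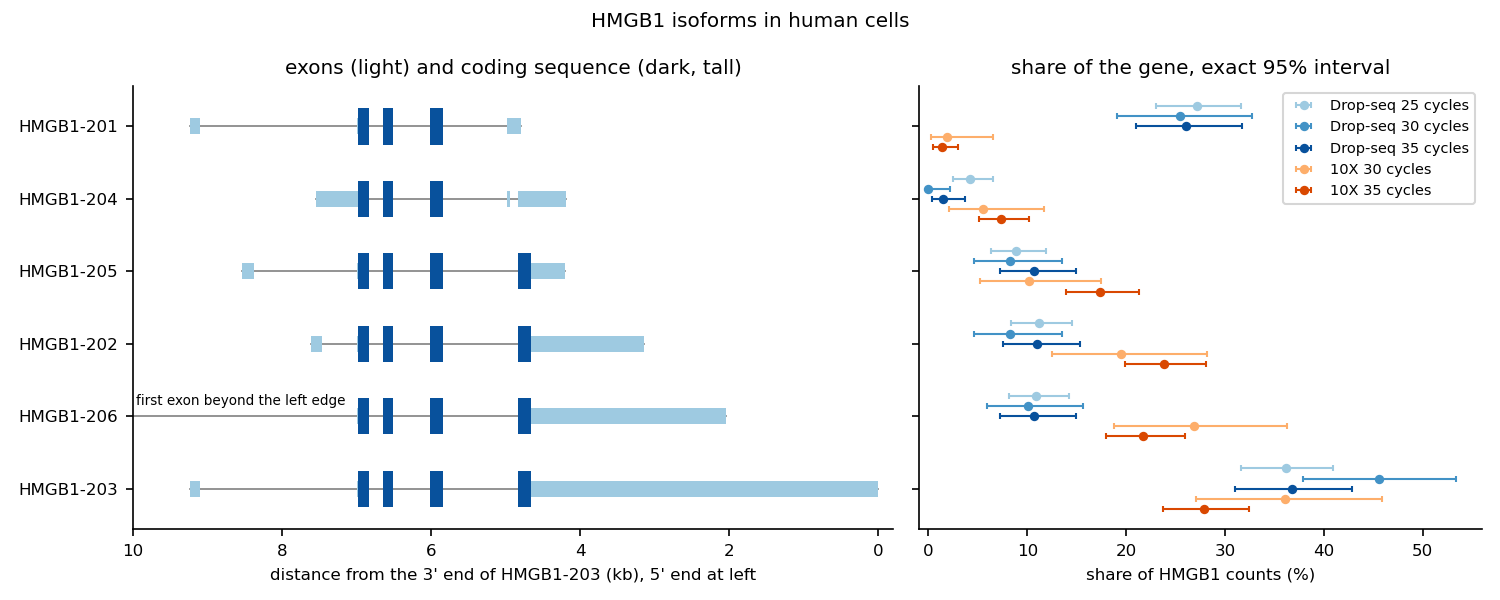
Left, exons of 6 HMGB1 isoforms by distance from the 3′ end of HMGB1-203 in kb (coding sequence dark and tall; the first exon of HMGB1-206 lies beyond the left edge); right, each isoform's share of HMGB1 counts in percent, 1 point per library with its exact 95% interval. HMGB1-201 takes 25.4% to 27.1% in Drop-seq, with 1.37% and 1.85% in 10X.

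Across all human transcripts of genes with at least 50 counts in both libraries, 9.39% of 394 differed in their share by at least 10 points between Drop-seq and 10X at 30 cycles and 15.4% of 624 at 35 cycles. Among HMG transcripts these were 4 of 14 at 30 cycles, HMGB1-201, HMGB1-202, HMGB1-206 and HMGN2-201. At 35 cycles they were 8 of 21, the same 4 with HMGB2-202, HMGB2-205, HMGN2-208 and HMGN2-209. Isoforms of 1 gene share its total and are not independent of each other. Between 30 and 35 cycles the background was 4.61% of 1323 in 10X and 1.43% of 1119 in Drop-seq, and 0 of 20 and 0 of 25 HMG transcripts passed 10 points.

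HMGN2-201, the only HMGN2 transcript annotated as protein coding among those counted, had 93, 44 and 90 counts in Drop-seq, with 64 and 131 in 10X. Transcripts without a defined coding sequence took the rest of HMGN2, at 41.9% (34.1% to 49.9%), 55.1% (44.7% to 65.2%) and 58.5% (51.7% to 65.2%) in Drop-seq, with 13.5% (6.68% to 23.5%) and 7.09% (3.45% to 12.7%) in 10X. HMGN2-206 was the first of these in the Drop-seq library at 25 cycles with 25 counts in 13 cells. HMGN2-209 was the first in the other 2, with 12 counts in 3 cells and 26 in 4. No Drop-seq interval met a 10X interval. However, 66.2%, 60.9% and 57.1% of the stored HMGN2 values in Drop-seq were the same as that of another HMGN2 isoform in the cell. In 10X these were 14.7% and 10.2%, and the part of this in the shares was not tested. Without values below 3 the shares were 34.4%, 55.1% and 58.5% in Drop-seq against 0% in each 10X library. This 0% was fixed in advance, because each of these transcripts had at most 2 counts in a 10X library. It rests on 16 and 53 remaining HMGN2 counts and adds nothing to the difference between platforms.

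HMGN1-204, its protein-coding transcript, had 5, 3, 6, 28 and 18 counts. Most HMGN1 counts lay on transcripts annotated as nonsense-mediated decay targets or with retained introns, 69.6% (59.1% to 78.7%) and 79.3% (69.3% to 87.3%) in 10X, where HMGN1-201 and HMGN1-206 had 25 counts each in both libraries. In Drop-seq these transcripts held 17 of 26, 6 of 9 and 12 of 18 counts, or 65.4%, 66.7% and 66.7%. However, 93.2% and 97.6% of the stored HMGN1 values in 10X were the same as that of another HMGN1 isoform in the cell. In each Drop-seq library this was 100%. The HMGN1 shares may therefore depend on how many annotated isoforms were counted together. For HMGB2, the retained-intron transcript HMGB2-205 took 21.1% (13.2% to 31.0%), 21.4% (12.5% to 32.9%) and 28.9% (19.1% to 40.5%) in Drop-seq, with 5.00% (0.611% to 16.9%) and 14.4% (7.92% to 23.4%) in 10X. The interval of Drop-seq at 35 cycles lay above that of 10X at 30 cycles, and all other pairs overlapped. HMGA1 was spread over 5 protein-coding transcripts, HMGA1-201 to HMGA1-205, with 10.7% to 29.2% each in Drop-seq.

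**Figure D3:**
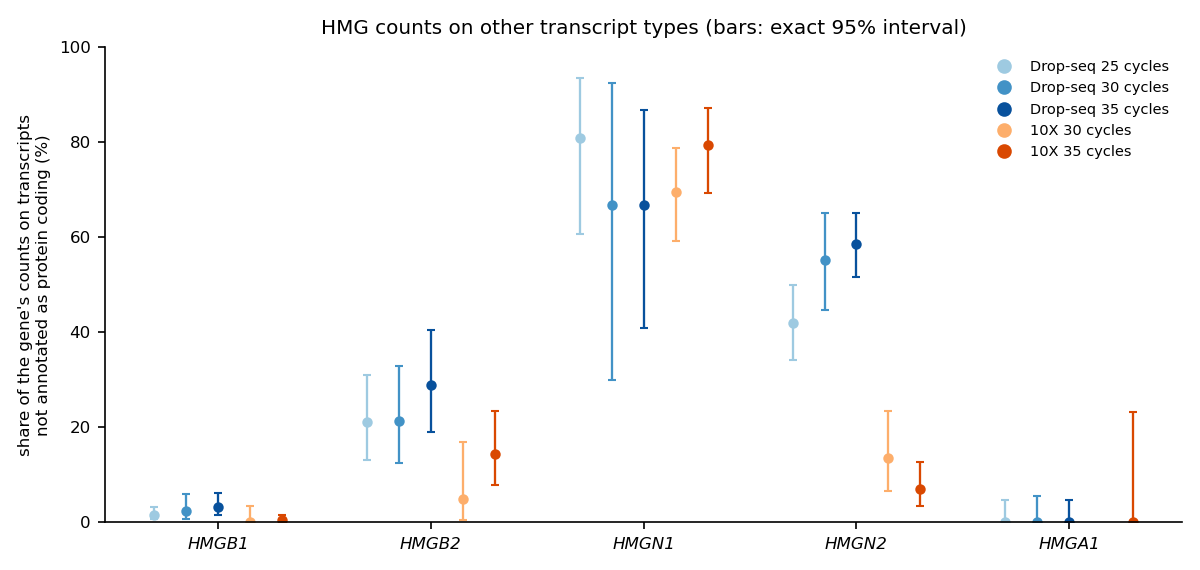
Share of the counts of each of 5 HMG genes that lay on transcripts not annotated as protein coding, in percent, with 1 point per library in the colours of the legend and exact 95% intervals. HMGN2 lies between 41.9% and 58.5% in Drop-seq, with 13.5% and 7.09% in 10X, and HMGN1 lies above 60% in every library.

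The comparison of 35 with 30 cycles asks whether more amplification changes the counts. On each platform the study describes splitting 1 amplified library and amplifying the parts further, so the comparison lies within 1 preparation. In 10X, HMGB1 was 3.29-fold higher at 35 cycles, a log2 ratio of 1.71 (1.41 to 2.03), with 108 and 437 counts. At least 2-fold higher were 10.2% and at least 2-fold lower 19.9% of the 391 genes with 100 counts or more over the pair, and HMGB1 was the 9th from the top. Of the 4 HMG genes with that many counts, HMGB1 was the 1 past 2-fold. HMGB2 had a log2 ratio of 0.86 (0.32 to 1.45) and HMGN2 one of 0.63 (0.21 to 1.06), both below 2-fold with intervals above 0, and HMGN1 one of -0.38 (-0.82 to 0.06). The call of HMGB2 depended on the settings, since its log2 ratio was 1.49 with every barcode of at least 100 counts as a cell, 1.05 when scaled by medians of ratios and 1.08 without cells whose barcode lay 1 base from a deeper one, each past 2-fold. Over the 722 human cells in both libraries, however, it was 0.61 (-0.05 to 1.33). HMGN1 was at -0.67 (-1.13 to -0.21) over these cells and at -1.19, past 2-fold lower, with the number of cells halved. The median of these 4 was 0.74, beside -0.19 over the 391 genes. HMGA1 went from 0 to 14 stored counts in 2 cells, all of them in stored values of 2, and no fold is given because lower values are missing.

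Among transcripts in 10X, 7.61% of 381 were at least 2-fold higher and 20.5% at least 2-fold lower at 35 cycles. HMGB1-202, HMGB1-206 and HMGB1-203 were higher, at log2 ratios of 1.98 (1.32 to 2.76), 1.40 (0.80 to 2.07) and 1.33 (0.82 to 1.90), and HMGN2-201 stayed below 2-fold at 0.73 (0.29 to 1.19). HMGB1-202 was the first of the 381. HMGB1-205, whose ratio the choice of the family rested on, had 87 counts over the pair and stood outside the 381, at 2.43 (1.57 to 3.55), and HMGB1-204 was at 2.02 (0.84 to 3.66). Among the 5 isoforms with at least 20 counts over the pair, the ratios fell in the order of transcript length, from HMGB1-205 (1282 bases) over HMGB1-204 (1727), HMGB1-202 (2319) and HMGB1-206 (4199) to HMGB1-203 (5456). The shorter HMGB1-201 (821 bases), with 2 and 6 counts, lay below all of these at 1.08 (-1.20 to 4.63). The order also changed with the choice of cells, since over the shared human cells HMGB1-204 (1.81) lay below HMGB1-202 (2.35), and with the number of cells halved HMGB1-204 was the lowest of the 5 at 1.2. The intervals of all 5 overlapped, so the order was not detectable beyond counting error, and the isoforms may share reads.

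In Drop-seq, HMGB1 had 169 counts at 30 and 272 at 35 cycles, a log2 ratio of 0.21 (-0.07 to 0.49). HMGB2 was at -0.36 (-0.85 to 0.13), HMGA1 at -0.27 (-0.77 to 0.23) and HMGN2 at 0.67 (0.32 to 1.03). None of these 4 was at least 2-fold apart, beside 0.987% of 304 genes higher and 0.987% lower. Their median was -0.03, beside -0.05 over the 304 genes. HMGN2 was the highest of the 4, with an interval above 0 in this pair as in the 10X pair.

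Among transcripts in Drop-seq, 0% of 243 were at least 2-fold higher and 0% lower. HMGB1-201 had a log2 ratio of 0.24 (-0.32 to 0.83), HMGB1-203 one of -0.10 (-0.54 to 0.35) and HMGN2-201 one of 0.55 (0.02 to 1.11). With fewer than 100 counts over the pair, HMGB1-205 was at 0.55 (-0.39 to 1.61), HMGB1-202 at 0.60 (-0.34 to 1.65) and HMGB1-206 at 0.28 (-0.62 to 1.25). For each of HMGB1-202 and HMGB1-203 the 10X and Drop-seq intervals were set side by side only. The platforms differ in cells, in UMI design and in smallest stored value.

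**Figure D4:**
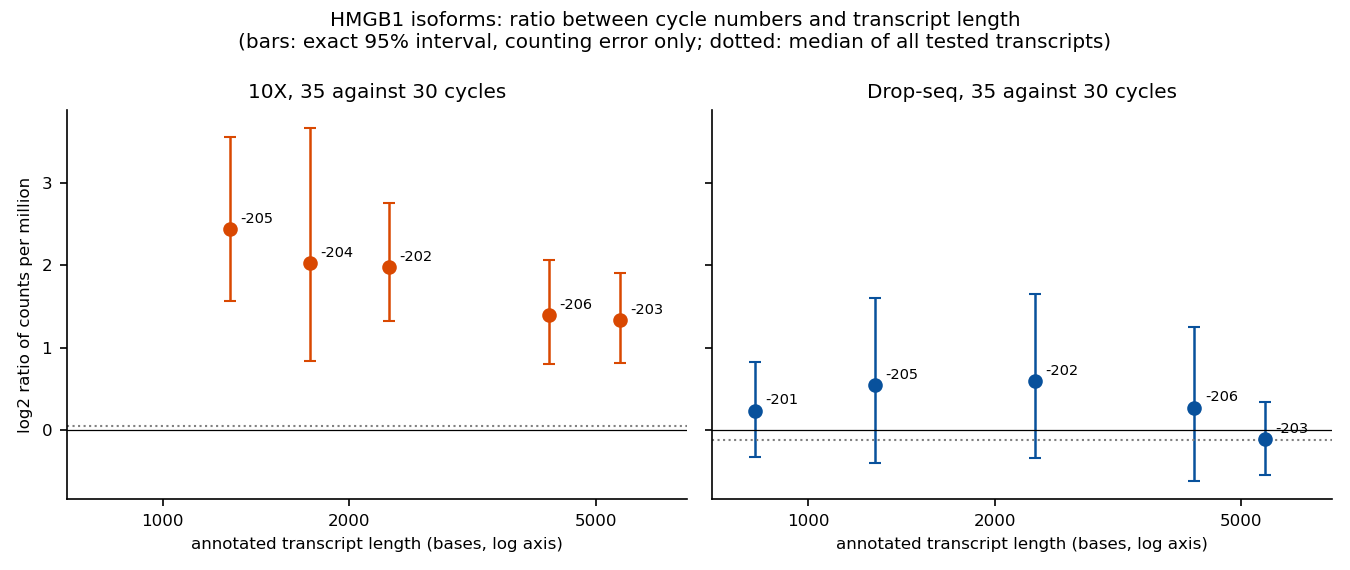
Log2 ratio of CPM at 35 over 30 cycles against annotated transcript length (bases, log axis) for HMGB1 isoforms with at least 20 counts over the pair, in 10X on the left and Drop-seq on the right; bars are exact 95% intervals and the dotted line is the median of all tested transcripts. In 10X the points go from 2.43 for HMGB1-205 to 1.33 for HMGB1-203, and in Drop-seq every interval includes 0.

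Most stored HMGB1 values in 10X were at the smallest stored value. At 30 cycles 48 of its 52 stored values were 2, and at 35 cycles 135 of 189 were. When the library at 35 cycles was thinned to the counts per human cell of the library at 30 cycles and values below 2 were dropped again, the log2 ratio was 1.69. When values below 3 were left out of both libraries, 12 and 167 HMGB1 counts remained and the log2 ratio was 2.93.

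The paired libraries share barcodes, which lets the same human cells be read at both cycle numbers. Among 722 human cells in both 10X libraries, HMGB1 had 74 counts in 15 cells at 30 cycles and 368 counts in 50 cells at 35 cycles, a log2 ratio of 1.93, and 6 of these cells had it in both. HMGB2 had 28 counts in 5 cells and 56 in 7, none of them in both. HMGN1 had 92 counts in 15 cells and 75 in 10, with 1 in both, and HMGN2 66 in 26 and 128 in 49, with 12 in both. Of the 61 combinations of cell and HMG gene at 30 cycles, 31.1% were found again at 35 cycles, beside 29.5% of 33833 over all human genes.

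Among 145 human cells in both Drop-seq libraries, HMGB1 had 169 counts in 14 cells at 30 cycles and 266 in 16 at 35 cycles, with 13 cells in both. HMGN2 had 89 counts in 11 cells and 217 in 17, with 10 in both, a log2 ratio of 0.81. HMGA1 had 65 counts in 5 cells and 75 in 4, with 4 in both. Here 91.7% of the 36 combinations of cell and HMG gene were found again, beside 87.3% of 4919 over all human genes. For HMG genes and for all genes alike, far more combinations recurred in Drop-seq than in 10X.

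**Figure D5:**
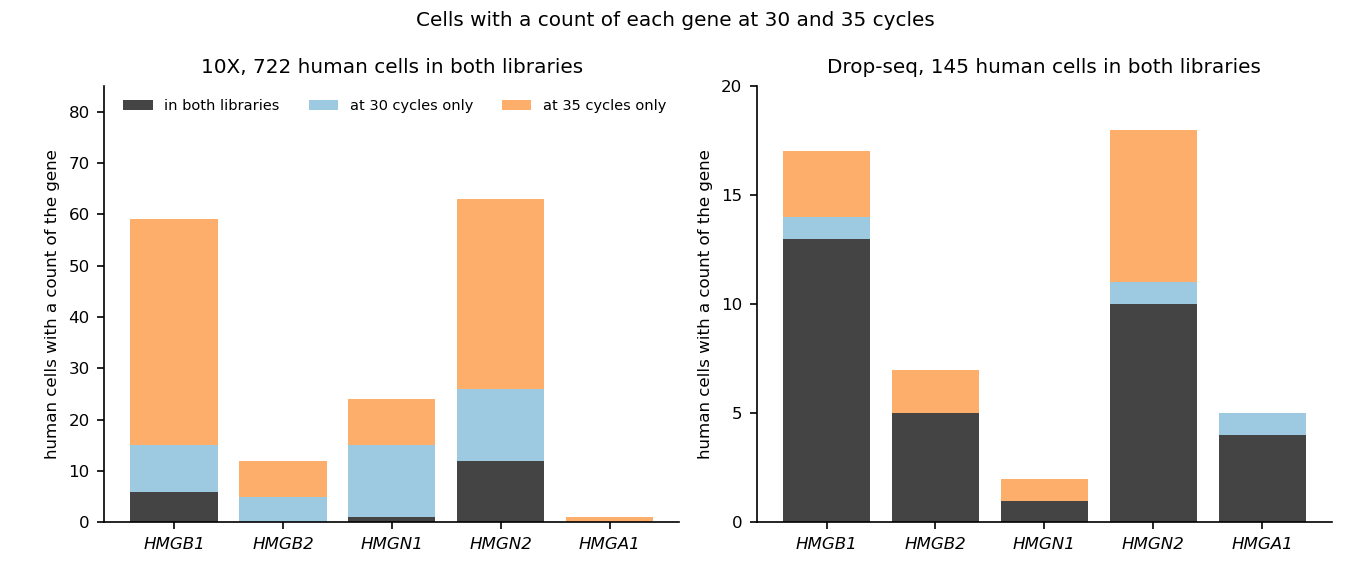
Number of human cells with a count of each gene among the 722 human cells in both 10X libraries (left) and the 145 in both Drop-seq libraries (right), stacked by whether the gene was seen in both libraries, at 30 cycles only or at 35 cycles only. HMGB1 was seen in both for 6 cells in 10X and for 13 in Drop-seq.

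To set the platforms beside each other at one smallest value, values below 3 were left out of both. At 30 cycles HMGB1 then had 169 counts in Drop-seq and 12 in 10X, a log2 ratio of -3.28 (-4.31 to -2.49), and HMGN2 had 98 and 16, at -2.09 (-2.99 to -1.36). Both HMG genes with 100 counts over the pair were lower in 10X, but so were 60.7% of 145 genes, while 29.7% were higher. At 35 cycles HMGB1 had 272 and 167 counts, at -0.56 (-0.85 to -0.28), and HMGN2 217 and 53, at -1.88 (-2.35 to -1.45). There 65.8% of 199 genes were lower in 10X and 25.1% higher, and HMGN2 was the 1 of both past 2-fold.

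Genes that work with HMG proteins were counted by lists. Of 7 linker histones, the competitors of HMGN proteins, 4, 2 and 3 had a count in Drop-seq, against 2 and 1 in 10X. H1-4 was at 7, 12 and 14 counts in Drop-seq and 0 in 10X, and H1-10 was at 0 in Drop-seq and 8 in each 10X library. Of 5 genes of the SET complex, which binds HMGB2, 4, 4, 4, 3 and 5 had a count, and SET itself had 43, 5 and 21 counts in Drop-seq, with 153 and 152 in 10X. Of 19 other HMG-box, HMGN and AT-hook genes, 10, 5, 7, 8 and 9 had a count, with SMARCE1 at 93, 14, 59, 20 and 22 and SSRP1, a subunit of the FACT histone chaperone, at 36, 6, 22, 23 and 37. Of 8 receptors for extracellular HMGB1, 2, 2, 0, 1 and 1 had a count, none above 18, the value of CXCR4 in Drop-seq at 30 cycles. Of all these lists, SET was the 1 gene with at least 100 counts over a pair, and its log2 ratio in 10X was -0.31.

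HMG pseudogenes, which could take reads of the genes, had 2, 0 and 0 counts in Drop-seq, with 0 and 5 in 10X over 157 genes. Over the 5 libraries, the genes whose centred log2 CPM lay closest to that of HMGB1 were H2AZ1, a histone H2A variant, at a root mean square distance of 0.376, and the ribosomal protein genes RPS3 at 0.399 and RPLP0 at 0.480. The median distance was 0.871 over 32 genes with at least 100 counts in every library.

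HMG genes were also set beside mitosis genes (10 genes such as MKI67, BIRC5 and CDK1), which had 720 to 1166 CPM in Drop-seq, with 463 and 753 CPM in 10X. HMGN2 was found in 4 of 22 human cells with a mitosis gene count and in 26 of 984 without in 10X at 30 cycles, and in 8 of 41 and 47 of 870 at 35 cycles. Its level was 1719 (742 to 3388) and 2514 (1670 to 3633) CPM in cells with such a count against 420 (324 to 534) and 601 (495 to 722) CPM without, and median depth was 139 against 116 and 208 against 170 human counts. In Drop-seq its intervals overlapped, at 1198, 2280 and 2331 CPM with and 1423, 1370 and 2320 CPM without a mitosis gene count.

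HMGB2 was at 1426, 3192 and 3344 CPM in Drop-seq cells with a mitosis gene count and at 665, 809 and 514 CPM in those without. In 10X it was at 0 CPM in 22 such cells at 30 cycles and at 1437 CPM at 35 cycles, against 254 and 393 CPM. These levels rested on 3, 1, 1, 0 and 2 cells with HMGB2. HMGB1 was at 1939, 3192 and 4662 CPM in Drop-seq cells with such a count and at 4063, 2444 and 2702 CPM without. In 10X it was at 1719 and 2693 CPM with and at 636 and 2163 CPM without. The HMGB1 levels with such a count rested on 5, 2, 2, 2 and 3 cells. HMGN1 had no count in such Drop-seq cells. In 10X it was at 1289 and 539 CPM with (1 cell each) and 547 and 430 CPM without. HMGA1, HMGB3 and HMGN3 had no count in such cells of any library. Mitosis genes were counted in deeper cells, whose median was 497.5, 840.5 and 809 human counts in Drop-seq against 248, 235.5 and 334, and the part of depth in this was not tested.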

How the data were processed

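The authors mixed human and mouse cells, made cDNA by Drop-seq or 10X Chromium and sequenced it on nanopore flow cells. Their methods name Guppy for base calling, minimap2 for mapping to transcripts of hg38 and mm10, and UMI-tools or a homotrimer set cover script for counting UMIs. The counter used for Drop-seq is not given in the sources used here. The deposited matrices hold raw UMI counts per barcode and transcript. The smallest stored values point to filters that are not described. Stored barcodes have 10 bases, so different cells could share one. A sample with read numbers only was not used. Per-sample columns of other series numbered 0.

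Transcripts were named by GENCODE release 44, later than the annotation named in the methods, and 42740 of 46484 human identifiers matched. Levels are CPM of human counts in human cells. No doublet caller was run, and cells with under 90% of counts on either species (26 to 208 per library) were left out. Log2 ratios used a pseudocount of 0.5 and a minimum of 100 counts over the pair. "At least 2-fold" is a rule of size, not a test. Intervals were exact Poisson, Clopper-Pearson or exact conditional binomial at 95%, and a count of 0 was limited at 3 counts only where values of 1 were stored. The comparison code was run on simulated independent Poisson counts with known changes, scaled by medians of ratios and not by totals. These counts lacked the limit on small stored values and the equal values between isoforms. The run therefore checks the code only. Python 3.11.15, numpy 2.4.6, pandas 2.3.3, scipy 1.17.1 and matplotlib 3.10.9 were used.

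The members and lists were chosen with earlier results of these data known. All 7 genes were named, transcripts with at least 100 counts over a pair and the 3 highest per gene, every HMGB1 transcript with a count in 10X, and the 3 genes most like HMGB1. Alternatives changed the choice of cells, the purity, the smallest value, the scaling, the count minimum, the isoform sum and the matching of versions. Added after the data were seen were thinning, leaving out the cell with the most counts of each gene, and leaving out cells whose barcode lay 1 base from a deeper one.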

Additional observations from a re-analysis of the deposited data

Results flagged for a closer look

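HMGB2 moved in opposite directions on the 2 platforms between 30 and 35 cycles, with a log2 ratio of 0.86 in 10X and -0.36 in Drop-seq. This difference was not tested, because there was 1 library per group, and the Drop-seq interval included 0. Without the cell with the most counts of the gene the ratio in Drop-seq was -0.66, and over the 145 shared human cells it was 0.13.

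HMG counts also lay in barcodes outside the cells, data that no comparison above used. They came to 3304, 511 and 798 counts in the Drop-seq libraries at 25, 30 and 35 cycles and to 156 and 457 in the 10X libraries at 30 and 35 cycles, or 77.1%, 54.5%, 51.7%, 29.9% and 33.6% of all HMG counts. Over all human transcripts the corresponding shares were 79.9%, 56.6%, 61.6%, 34.9% and 42.0%. HMGN3, with no count in human cells of Drop-seq, had 116, 9 and 21 of its counts there, and HMGB3 had 21, 0 and 3.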

How the results depend on the processing

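Between 30 and 35 cycles in 10X, 3 HMG transcripts and 1 HMG gene were at least 2-fold apart, and across platforms at 30 cycles 2 genes were. In Drop-seq both counts were 0, under the 12 alternatives run for transcripts and the 13 run for genes as well. HMGB1 stayed at least 2-fold higher at 35 cycles in 10X in every alternative run, at log2 ratios of 1.33 to 2.93.

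With the number of cells halved, 1 transcript, the 1 tested, and 2 genes passed in 10X (HMGN1 at -1.19 beside HMGB1), with HMGB1-202, HMGB1-206 and HMGB1-203 at log2 ratios of 2.22, 1.62 and 1.69, and 1 gene across platforms, and the summed level of the 7 genes was 5983 CPM (Drop-seq, 25 cycles), 5538 CPM (Drop-seq, 30 cycles), 1774 CPM (10X, 30 cycles) and 3488 CPM (10X, 35 cycles), beside 6803, 6121, 1988 and 3888 as reported. With barcodes of at least 100 counts 2 genes passed in 10X (HMGB2 at 1.49), and the sum was 6420 CPM in Drop-seq at 35 cycles, beside 7038. At 95% purity it was 5780 CPM in Drop-seq at 25 cycles. Without values below 3, no HMG transcript had 100 counts over the 10X pair, so 0 passed, although HMGB1-203, HMGB1-202 and HMGB1-206 were at 2.85, 2.72 and 2.61. There the sums were 833 and 2920 CPM, HMGB1-203 and HMGB1-205 took 25.0% of the gene each and HMGB1-201 and HMGB1-204 0% at 30 cycles, and HMGB1-201 0% at 35 cycles. Scaling by medians of ratios put 2 genes past 2-fold in 10X (HMGB2 at 1.05). A minimum of 50 counts gave 4 genes across platforms, and one of 200 left no HMG gene to test there and no HMG transcript in 10X, hence 0 of each. With the highest isoform per cell, 0 genes reached the count minimum across platforms, and the sums were 2725, 2770, 2920, 994 and 1686 CPM for Drop-seq by rising cycle number and then 10X.

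In 3 alternatives chosen after seeing the data, thinning left 1 of 2 tested transcripts in 10X, with HMGB1-202, HMGB1-206 and HMGB1-203 at 1.96, 1.38 and 1.31. Leaving out the cell with the most counts of each gene gave sums of 4929, 4624, 5655, 1686 and 3593 CPM. Leaving out cells with a barcode near a deeper one gave 2 genes in 10X (HMGB2 at 1.08) and sums of 5183 and 6457 CPM in Drop-seq at 25 and 35 cycles. The cause of these shifts was not tested. Of 120 HMGB1 isoform shares 115 stayed within their interval, as did 185 of 194 log2 ratios, and 0 ratios of at least 2-fold changed sign. No paired analysis was possible because each group was 1 library, and the ratios over shared human cells pair cells and not replicate samples. Isoform ratios rest on few counts, such as 11 and 76 for HMGB1-205 in 10X.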
